A study of Mus musculus with 2 samples.

Results

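The results concern 6 miRNA genes, of 2202 miRNA genes in the deposited count files, that are set apart by how their miRNAs are made or by where they lie. Mir320 and Mir484 are Drosha-independent, Mir877 and Mir1224 are mirtrons, Mir451a is Dicer-independent, and Mir144 is the neighbour of Mir451a. The genes were taken by their GENCODE M21 names, and all 6 were found. MicroRNAs are short RNAs that guide Argonaute proteins to messenger RNAs and silence them. The study sequenced small RNA under 30 nt from tissue described as a layer of the hippocampus, without saying which layer, of female mice 18 to 20 months old, with no treatment named. The strain, B6CASTF1/J, is a hybrid of the B6 and CAST strains. The 2 libraries, biological replicates 1 and 2, form 1 group, so no condition was contrasted, and the comparisons made are between genes and between the libraries. Their tissue records carry different animal numbers but the same donor record, so it is likely, not certain, that 2 animals were used. The exact binomial and Fisher's tests between the libraries compare their reads only, and edgeR's exactTest takes its error from the same 2 libraries. Any of these p-values may reflect technical differences.

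Most miRNAs are cut from a long primary transcript by the nuclear enzyme Drosha and its partner Dgcr8, and the hairpin so freed is then cut near its loop by Dicer. Mirtrons skip Drosha: the hairpin is a whole short intron, freed by splicing and debranching. The hairpins of Mir320 and Mir484 are described as capped transcripts that arise directly from transcription and are then cut by Dicer. miR-451a skips Dicer instead: its hairpin is freed by Drosha, is too short for Dicer, and is cut by Argonaute 2 and then trimmed. miR-144 is made in the usual way and is transcribed together with miR-451a, mainly in red cell precursors under the factor Gata1. Because of these routes, miR-320, miR-484 and mirtrons have been used in the brain to tell the loss of Dgcr8 from the loss of Dicer.

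The annotated mature sequences are shown because they are what a small RNA library reads, with the seed, bases 2 to 8, in capitals. RefSeq entries on GRCm38.p6 matched 5 of the 6 genes (all but Mir320).
miR-484: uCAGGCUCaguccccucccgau
miR-877-5p: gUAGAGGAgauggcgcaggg
miR-877-3p: uGUCCUCUucucccuccuccca
miR-1224-5p: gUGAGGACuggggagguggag
miR-1224-3p: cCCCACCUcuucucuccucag
miR-451a: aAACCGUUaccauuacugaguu
miR-144-5p: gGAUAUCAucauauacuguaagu
miR-144-3p: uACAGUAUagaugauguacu
No seed was shared among these 8, and none was shared with another gene among the 1738 mature entries of the table. None of the 8 held a stretch of 18 bases found in the sense sequence of another GENCODE M21 miRNA hairpin. The mature sequences from Mir484, Mir877 and Mir1224 were 59.1% to 66.7% G and C, against a median of 52.2% over all entries. Those from Mir451a (36.4%) and Mir144 (30.0% and 30.4%) lay below that median.

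Sense counts over all miRNA genes came to 2255838 in replicate 1 and 4521208 in replicate 2. Levels are in CPM, sense counts per 1000000 such counts. Where a gene had no count, a level of 3 counts, which is 1.33 CPM in replicate 1 and 0.664 CPM in replicate 2, is taken as the limit that the count of 0 allows. Intervals in square brackets are exact 95% Poisson intervals, and like these limits they cover counting error only. Unmapped reads made up 29.0% of all reads in replicate 1 and 11.2% in replicate 2, and multimapping reads 36.2% and 47.9%. What part that played in the differences between the libraries was not tested. Among the marker miRNAs of neurons, Mir132, Mir128-1, Mir137 and Mir138-1 stood between 2386 and 38949 CPM in both libraries. The 3 copies of Mir124a stayed at or below 2.88 CPM. They have identical mature sequences, and reads that fit several places are not in the gene counts. Mir128-1 and Mir138-1 also have numbered copies in the files, Mir128-2 and Mir138-2, so their gene counts may leave out reads as well. The muscle markers Mir1a-1 and Mir133a-1 had no count, but they too have copies with the same mature sequence, so their counts of 0 do not show absence. Mir206 stood at 15.1 and 26.3 CPM. The liver marker Mir122 had 14.6 CPM in replicate 1, against 43.1 in replicate 2.

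The 6 genes were all detected, at mean levels between 33.1 and 2259 CPM. Together they held 9523 counts in replicate 1 and 15410 in replicate 2, or 0.422% and 0.341% of the sense counts. Mir320 and Mir484 alone made up 88.4% of these in replicate 1 and 84.8% in replicate 2. The most abundant gene of the files, Mirlet7g, stood at 120699 ± 33219 CPM (SD, n = 2). A read covers a mature RNA rather than a part of a long transcript, so levels were not divided by length. How well each sequence was ligated was not measured, and an order of levels is an order of reads.

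Mir320 was the most abundant of the 6. It lies at chromosome 14, 70443510 to 70443591 (mm10, plus strand), in no other annotated gene. The start of Polr3d, which encodes a subunit of RNA polymerase III and runs the other way, lies 62 bases upstream. It had 5546 counts in replicate 1, or 2459 CPM [2394 to 2524], and 9310 in replicate 2, or 2059 CPM [2018 to 2101]. The mean was 2259 ± 282 CPM (SD, n = 2), and the gene ranked 63rd and 61st of all miRNA genes in replicates 1 and 2. Nearest to it in level over both libraries were Mir107 and Mir485, at distances of 0.16 and 0.25 in log2(CPM + 1).

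Mir484 followed, with 2870 counts in replicate 1, or 1272 CPM [1226 to 1320], and 3756 in replicate 2, or 831 CPM [804 to 858]. The mean was 1052 ± 312 CPM (SD, n = 2), at ranks 92 and 96. The gene (chromosome 16, 14159626 to 14159692, plus strand) lies opposite an exon of Marf1, on the other strand. The annotated start of Nde1, on the same strand, lies 3582 bases further on. No antisense count was given for Mir484 in either library, and Mir320 had 1, in replicate 2. Nearest in level were Mir1249, at a distance of 0.06, and Mir93, at 0.24.

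The mirtrons Mir877 and Mir1224 each filled an intron exactly. Mir877 (chromosome 17, 35960730 to 35960814, minus strand) is intron 12 of 22 of Abcf1-201, a transcript of a gene for an ATP-binding protein of translation. Mir1224 (chromosome 16, 20604452 to 20604536, plus strand) is the last intron, number 22, of Vwa5b2-202. Both introns are 85 bases long, with an offset of 0 at either end. The hairpins are shown with their outer pairs of bases, the ends of the intron, in capitals.
Mir877: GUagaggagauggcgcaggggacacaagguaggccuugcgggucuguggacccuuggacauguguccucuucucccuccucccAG
Mir1224: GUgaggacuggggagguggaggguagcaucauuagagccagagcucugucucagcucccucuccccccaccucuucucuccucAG
Both start with GU and end with AG, the usual letters at the ends of an intron. The 5p arm of each starts at base 1 of the intron. The 3p arm of Mir1224 ends at base 85, the last of the intron, and that of Mir877 at base 84.

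**Figure D1:**
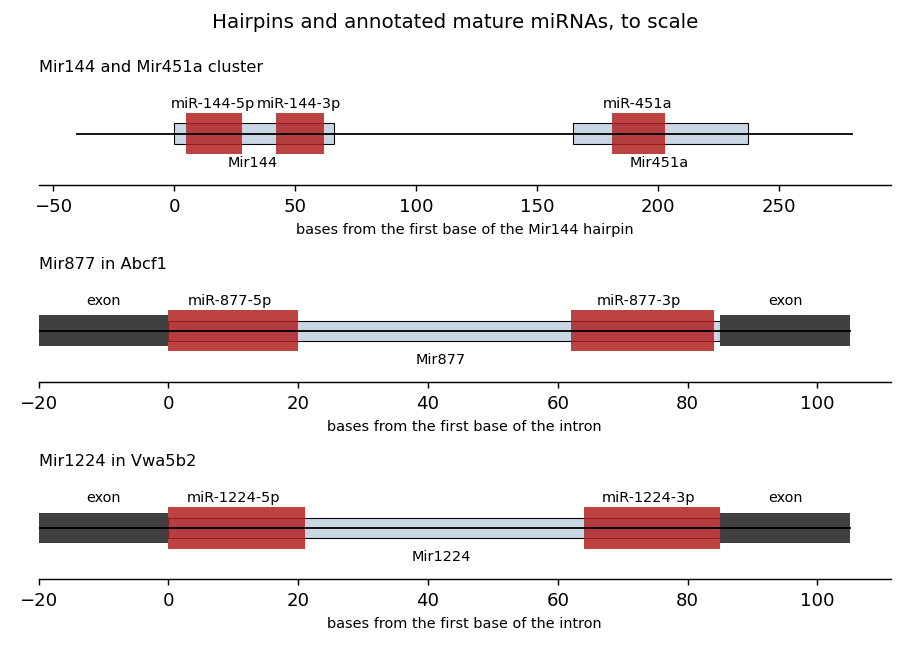
Maps of the Mir144 and Mir451a cluster and of the introns that hold Mir877 and Mir1224, with the distance in bases on the horizontal axis. Pale boxes are hairpins, red boxes are mature miRNAs and dark stubs mark where the exons begin, cut short; Mir144 and Mir451a lie 99 bases apart, and both mirtrons fill introns of 85 bases.

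Mir877 had 558 counts in replicate 1, or 247 CPM [227 to 269], and 975 in replicate 2, or 216 CPM [202 to 230], with a mean of 232 ± 22.4 CPM (SD, n = 2). Mir1224 had 273 counts in replicate 1, or 121 CPM [107 to 136], and 827 in replicate 2, or 183 CPM [171 to 196], with a mean of 152 ± 43.8 CPM. Mir877 was thus the higher in both libraries, by 2.04 times in replicate 1 and 1.18 times in replicate 2. Nearest to Mir877 in level were Mirlet7a-1 (0.11) and Mir1981 (0.13), and Mir1981 too is a hairpin that fills an intron. Nearest to Mir1224 were Mir30c-2 (0.21) and Mir3475 (0.36). Mirlet7a-1 and Mir30c-2 have numbered copies in the files, Mirlet7a-2 and Mir30c-1. Reads that fit several places are in no gene count, so these matches are of gene counts and not of whole miRNAs.

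Of the 2202 miRNA genes, 23 had both ends within 5 bases of the ends of an annotated intron on the same strand. In these the members stood at ranks 3 and 5 by mean level. Mir3102, in Arhgef17, led with 840 CPM in replicate 1 against 558 in replicate 2, and Mir7080, in Cpne7, stood at 270 and 215 CPM. Mir1981, in Marc2, followed Mir877 at 243 and 198 CPM. The next below Mir1224, Mir6944 in Dbn1, stood at 46.1 and 28.1 CPM, so 5 genes stood above 100 CPM in both libraries. In both libraries 9 of the 23 (39.1%) reached 1 CPM, while 20.3% of all miRNA genes did. No count was found for 7 of the 23 (30.4%), against 66.7% of all. Sequences were at hand for 17 of the 23, and 15 of those started with GU and ended with AG. Of all 1005 hairpins in the table, mirtrons included, 30 (2.99%) did. The intron-filling genes were chosen by the ends of introns, so this difference follows largely from the choice. The median of G and C over the 17 was 60.5%, against 51.7% over all hairpins, and that of Mir877 was 61.2% and of Mir1224 60.0%.

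**Figure D2:**
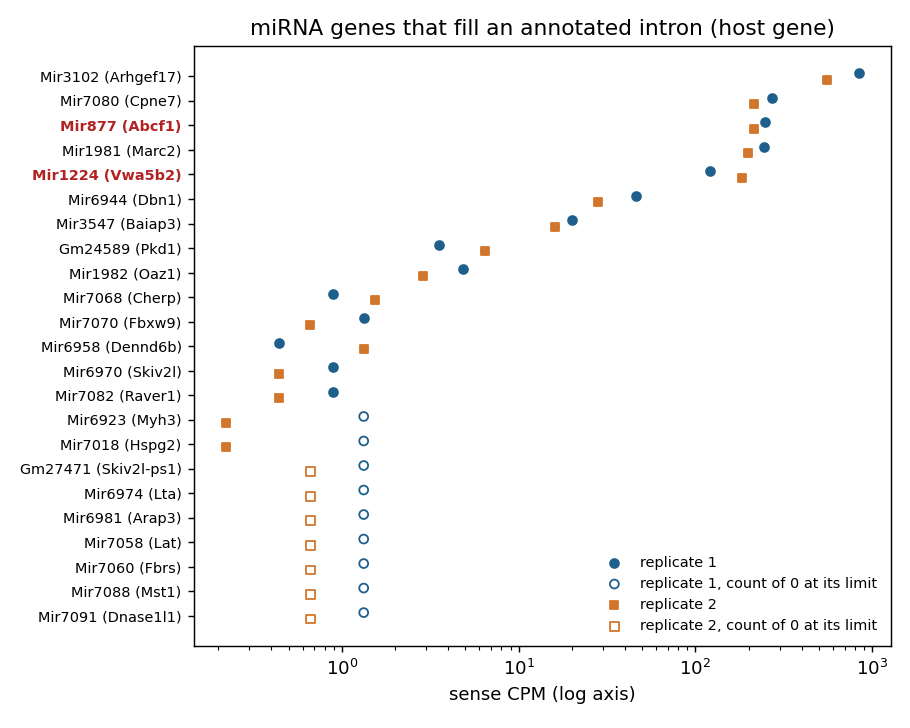
Sense CPM (log axis) of the 23 miRNA genes that fill an annotated intron, with the host gene in brackets; filled symbols are replicate 1 (circles) and replicate 2 (squares), and open symbols stand at the level that a count of 0 allows. Mir877 and Mir1224, in red, are the third and the fifth of the 23, and 7 genes had no count in either library.

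Other miRNAs described as made without the usual steps were also present. Mir1839, which is annotated within a small Cajal body RNA, had 1816 CPM in replicate 1 and 1882 in replicate 2. Mir1983, derived from a transfer RNA, stood at 304 and 332 CPM. Mir702, a mirtron whose annotated hairpin starts before its intron does, stood at 152 and 143 CPM. None of these, nor Mir1981, differed between the libraries by 2-fold or more.

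Mir451a and Mir144 are the erythroid pair. Mir451a lies at chromosome 11, 78073170 to 78073241, and Mir144 at 78073005 to 78073070, both on the plus strand and 99 bases apart, in no protein-coding gene. The hairpin of Mir451a is shown with the mature miRNA in capitals, because the mature miRNA takes in the loop.
Mir451a: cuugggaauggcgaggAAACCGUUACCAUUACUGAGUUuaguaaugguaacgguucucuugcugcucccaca
In the fold of lowest energy by RNAfold, the longest unbroken stem of this hairpin had 17 base pairs, against a median of 9 over 1005 hairpins. The loop at its tip had 4 bases, and all 4 belong to the mature sequence, which runs from base 17 to base 38 of the hairpin. A loop of 4 bases was also found in Mir877 and Mir1224. Of the 950 hairpins with a single loop, 294 (30.9%) had a loop of 4 bases or fewer. In each of the 4 other members with a sequence, no base of a mature miRNA lay in the loop. A stem of 17 pairs or more was also found in 60 other hairpins. The fold energy was -43.3 kcal/mol, or -0.60 kcal/mol per base, against a median of -0.41, and 49 of the hairpins had a lower value per base. The other members lay between -0.37 (Mir484) and -0.50 (Mir1224) kcal/mol per base, with longest stems of 9 or 10 pairs.

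Mir451a had 237 counts in replicate 1, or 105 CPM [92.1 to 119], and 321 in replicate 2, or 71.0 CPM [63.4 to 79.2], with a mean of 88.0 ± 24.1 CPM (SD, n = 2). Mir144 had 39 counts in replicate 1, or 17.3 CPM [12.3 to 23.6], and 221 in replicate 2, or 48.9 CPM [42.6 to 55.8], with a mean of 33.1 ± 22.3 CPM. Mir451a was thus higher in replicate 1 and Mir144 in replicate 2, and in both libraries Mir451a had the more reads. Nearest to Mir451a in level were Mir9-3 (0.161) and Mir210 (0.161). Mir9-3 too has numbered copies, Mir9-1 and Mir9-2, so its gene count may leave out reads of its miRNA. Nearest to Mir144 were Mir122 (0.29) and Mir504 (0.30).

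Mir451b is annotated over the very bases of Mir451a on the other strand, and the columns of the files differ there. Mir451b had 0 sense counts in both libraries, which by the limit of 3 counts allows up to 1.33 and 0.664 CPM. Its antisense counts, 237 and 321, are those of Mir451a. In the column of the files that ignores strand, Mir451a stood at 0 in both libraries, since a read there fits both genes, while the other 5 members kept their counts to within 1 read. Mir486, another miRNA of red cells, which lies in Ank1, likewise read 0 without strand and had 36 and 72 sense counts, or 16.0 and 15.9 CPM. Whether reads of Mir486 also fit other places, and so fell out of its count, was not tested. Its level, and any sum with it, may thus be too low. The 3 red cell markers Mir451a, Mir144 and Mir486 summed to 138 CPM in replicate 1 and to 136 in replicate 2. The leukocyte markers Mir142, Mir223 and Mir150 summed to 993 and 884 CPM. Most of that was Mir150, at 823 CPM in replicate 1 and 752 in replicate 2. Mir142 stood at 157 and 116 CPM, and Mir223 at 12.9 and 15.3 CPM. In bulk tissue, fewer cells of a type and less RNA per cell cannot be told apart, and which cells gave these reads was not tested.

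**Figure D3:**
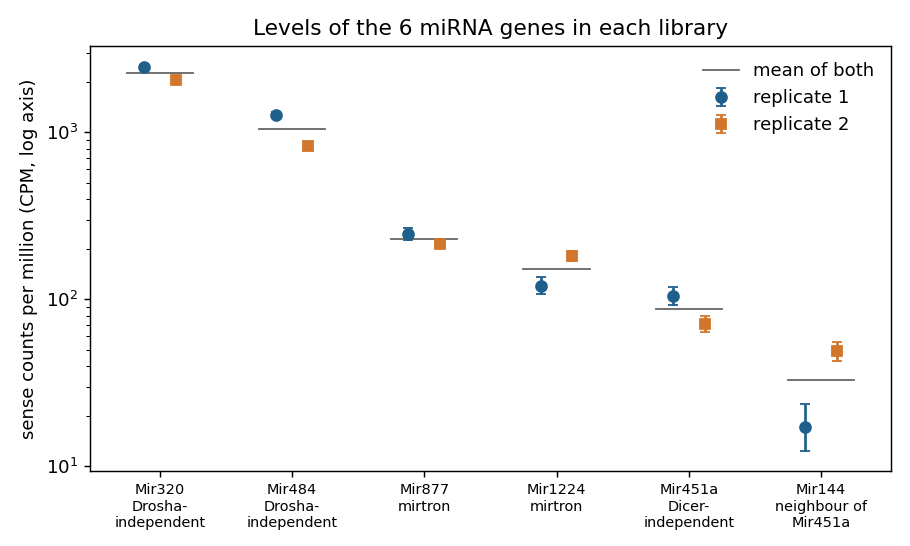
Sense CPM (log axis) of the 6 genes in replicate 1 (circles) and replicate 2 (squares), with exact 95% Poisson intervals and the mean of both libraries as a line. The order Mir320, Mir484, Mir877, Mir1224, Mir451a, Mir144 holds in both libraries, though the intervals of Mir1224 and Mir451a overlap in replicate 1. As a ratio, Mir144 shows the widest gap between the libraries, 17.3 against 48.9 CPM.

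The order of the 6 levels was the same in both libraries, and the range of a gene's 2 values never overlapped that of the next. The closest neighbours were Mir1224, at 121 CPM or more, and Mir451a, at 105 CPM or less. In replicate 1 their counting intervals overlapped, at 107 to 136 CPM for Mir1224 and 92.1 to 119 CPM for Mir451a. Mir877, at 216 CPM or more, and Mir1224, at 183 CPM or less, came next. An exact permutation test of 2 values against 2 cannot give a p below 0.333, and the order of neighbours was not tested in another way. Mir320 exceeded Mir484 by 1.93 times in replicate 1 and 2.48 times in replicate 2, and Mir484 exceeded Mir877 by 5.14 and 3.85 times.

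Between the libraries, 1 of the 6 genes, Mir144, was called. A call needs an adjusted p under 0.05 by the exact conditional binomial test, adjusted after Benjamini and Hochberg over the 495 genes at a mean of 1 CPM or more, and a difference of 2-fold or more. By that rule 17.6% of the 495 genes were called, so 1 of 6 is near the background. Lower in replicate 1, as Mir144 was, were 3.84%, and higher were 13.7%. The log2 ratio of Mir144, replicate 1 over replicate 2, was -1.48, or 2.80-fold lower in replicate 1 (adjusted p = 1.4e-10, exact binomial test). With the spread between the libraries taken as the error, edgeR's exactTest gave it an unadjusted p of 0.068 and an adjusted p of 1, and 0.606% of the genes, 3 in number, were called. The error there comes from the same 2 libraries that are compared, so the lack of a call does not show that they agree.

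The other 5 were not called, since each differed by less than 2-fold, although all had an adjusted p under 0.05 on the sum of sense counts. The log2 ratios, replicate 1 over replicate 2, were 0.61 for Mir484, 0.57 for Mir451a, 0.26 for Mir320, 0.20 for Mir877 and -0.59 for Mir1224. Those of Mir320 and Mir877 turned negative when all reads of the file were the denominator. The median absolute log2 ratio of the 6 was 0.58, against 0.51 over the 495 genes. The Drosha-independent genes were both higher in replicate 1 on the sum of sense counts, which for Mir320 did not hold on all reads. Of the mirtrons, Mir1224 was lower in replicate 1 under each scaling, while the log2 ratio of Mir877 lay near 0, at 0.08 with TMM (adjusted p = 0.45) and 0.01 with DESeq2 size factors (adjusted p = 0.99), by the exact binomial test. Of the 10 intron-filling genes that were tested, 0 were called by the binomial test, against 17.6% of all genes tested. These are too few genes to read a difference from. None was called by edgeR's exactTest, with an unadjusted p of 0.393 or more, but that test called only 0.606% of all genes tested.

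**Figure D4:**
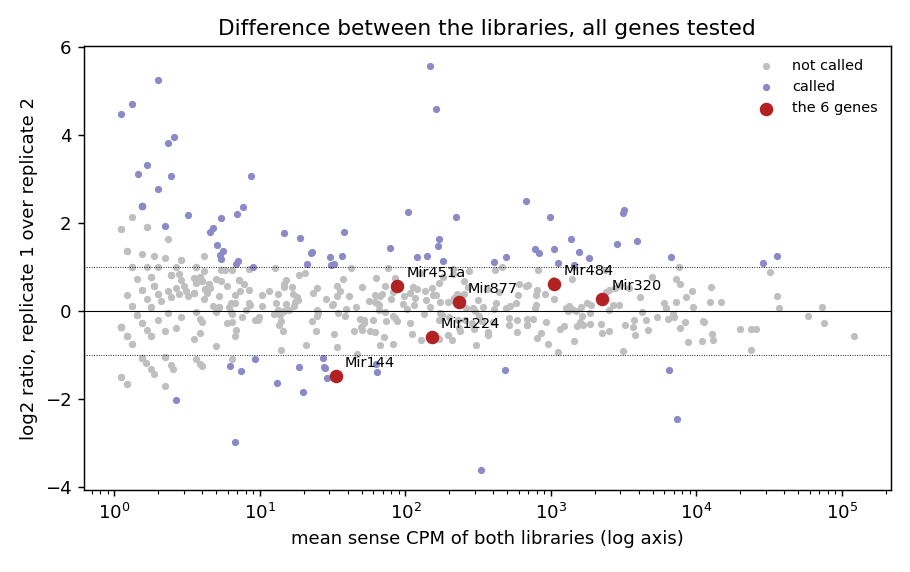
Log2 ratio of replicate 1 over replicate 2 against the mean sense CPM (log axis) of the 495 genes tested; the 6 genes are red, called genes are violet, the others are grey and dotted lines mark 2-fold. Mir144, at -1.48, is the member beyond the lines, and the other 5 lie between -0.59 and 0.61.

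Mir144 and Mir451a thus had log2 ratios of opposite sign, although they lie 99 bases apart and were counted in the same libraries. How far Mir451a was higher in replicate 1 depended on the scaling. Its log2 ratio was 0.57 on the sum of sense counts, 0.37 with DESeq2 size factors and 0.26 on all reads. On all reads its adjusted p was 0.058 by the exact binomial test. Mir451a had 6.08 reads per read of Mir144 in replicate 1 and 1.45 in replicate 2. The ratio differed by 4.18 times (95% interval 2.83 to 6.28; two-sided Fisher's exact test p = 9.4e-16), a quantity in which library size cancels. The test compares reads of these 2 libraries and has no replicate check.

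Beside other neighbours, the pair stood near the top. Of the genes at a mean of 10 CPM or more, 96 pairs of neighbours lay on the same strand within 10 kb, of which 45 are on chromosome 12. By Fisher's exact test adjusted over the 96 pairs and a difference of 2-fold or more, 28.1% of the pairs were called, Mir144 with Mir451a among them (adjusted p = 2.9e-15). The absolute difference of their log2 ratios was 2.05, the third of the 96, against a median of 0.60. The 2 pairs above it, Mir666 with Mir543 (3.28) and Mir543 with Mir495 (2.15), share a gene. In 45 of the 96 pairs the log2 ratios had opposite signs. Some of the 96 pairs hold genes with numbered copies, such as Mir181a-2 and Mir9-1, whose gene counts may leave out multimapping reads. The pairs were compared after the opposite signs of Mir144 and Mir451a had been seen.

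**Figure D5:**
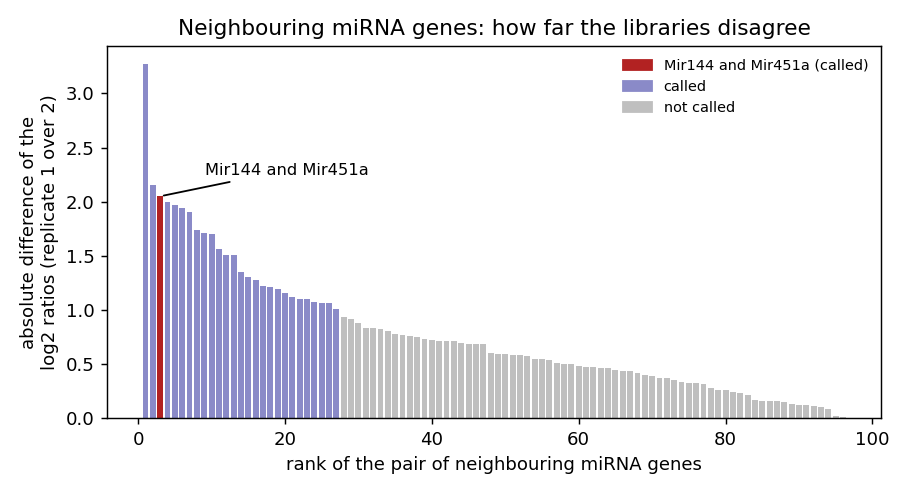
Absolute difference of the log2 ratios (replicate 1 over replicate 2) within each of 96 pairs of neighbouring miRNA genes, in order of size; violet bars are called pairs, grey bars are not, and the red bar is Mir144 with Mir451a. That pair is the third, at 2.05, and the median is 0.60.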

How the data were processed

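Small RNA libraries of 2 tissue samples were analysed, 1 library per sample. The authors deposited raw counts per miRNA gene, without strand, sense and antisense, after 4 rows of totals (unmapped, multimapping, unassigned, ambiguous). Which column is which strand was read from the values. Per the deposited README files, reads were placed on mm10 with the M21 annotation of GENCODE; aligner and counter were not given in the sources used here. Hairpin genes sum both mature arms, and multimapping reads are in no gene count.

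Sense counts were scaled to CPM on the sum over genes, without the rows of totals, which hold 69.8% of the reads in replicate 1 and 62.8% in replicate 2. A pseudocount of 1 CPM was used for log2 levels and of 0.5 counts for log2 ratios. Libraries were compared by exact conditional binomial tests, which were tested on simulated data; with 1 group of 2 libraries edgeR's quasi-likelihood test has no contrast. Alternatives used edgeR 4.0.16 (TMM, and exactTest with the dispersion of both libraries as 1 group) and DESeq2 1.42.0 size factors. Folds are from RNAfold 2.7.2, and exact tests from scipy 1.17.1.

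The members and lists were chosen with earlier results of these data known. Named were every member, 2 lists (red cell and other noncanonical miRNAs), the 3 most abundant other intron-filling genes, the 2 genes nearest each member in Euclidean distance of log2(CPM + 1), overlapping miRNA genes and the most abundant gene; Mir6944 and the pairs of Mir543 were named after their values were seen. Mir486b had no match in the files.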

Additional observations from a re-analysis of the deposited data

How the results depend on the processing

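No paired analysis was possible because both libraries belong to 1 group, with no second condition to pair; ratios of genes within each library are given as values. With all reads as the denominator, mean levels per 1000000 reads were by construction lower. They were 753 for Mir320, 346 for Mir484, 77.4 for Mir877, 52.3 for Mir1224, 29.0 for Mir451a and 11.7 for Mir144. The log2 ratios (replicate 1 over replicate 2) of Mir320 and Mir877 were then -0.047 and -0.10, with adjusted p = 0.089 and 0.26 by the exact binomial test. That scaling lowered every log2 ratio by 0.30, TMM by 0.12 and DESeq2 size factors by 0.19. In unstranded counts Mir451a stood at 0, so its ratios, to Mir144 too, had no value there. By edgeR's exactTest Mir144 was not called (log2 ratio -1.60, adjusted p = 1), and 3 genes were called in all; over its other alternatives the adjusted p of Mir144 ran from 1.0e-15 to 6.5e-11. With a filter at 10 CPM 53 of 310 genes were called, because fewer were tested. The 87 calls, 68 higher and 19 lower in replicate 1, became 51 and 26 with TMM and 48 and 27 with DESeq2 size factors. Leaving out either library moved each level by less than its SD, as it must with 2 libraries. The count of intron-filling genes was 22 to 29 for tolerances of 2 to 10 bases. Chosen after seeing the data, pairs with both genes at 50 CPM or more gave 21 calls of 75, without Mir144 and Mir451a since Mir144 lies below that level, and pairs within 1 kb gave 18 of 59. Depth limits Mir144 most, with 39 counts in replicate 1.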
